A study of Arabidopsis thaliana with 11 samples.

Results

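The cell cycle engine of Arabidopsis thaliana was followed through 57 genes, chosen by locus identifier out of 33602 genes in the deposited table. They are the A- and B-type cyclins, cyclin-dependent kinases (CDKs), activators of the anaphase-promoting complex (APC), Aurora kinases, the E2F factors with RBR1, replication genes, and the KRP and SIM-type CDK inhibitors. D-type cyclins were not included. They were set in 3 classes, with 19 genes of S phase, 25 of mitosis and 10 inhibitors, and 3 genes (CDKA;1, CCS52A1 and CCS52A2) stood in no class.

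Messenger RNA came from whole seedlings, 4 days old and grown in light, so every value is a mean over all organs. The inducible line, iSPCH, carries ESTpro:SPCH1-4A-YFP, an estradiol-inducible, tagged variant (SPCH1-4A) of SPEECHLESS (SPCH), the transcription factor that starts the stomatal lineage. No group induced SPCH without the 1-4A change, so the results hold for the variant. The iSPCH line was set against Col wild type (WT), which lacks the construct, so the construct and the SPCH it makes cannot be told apart. Both lines were sampled untreated (0 h) and after 6 h or 8 h in 10 µM β-estradiol, so the hours after 0 h and the treatment also cannot be told apart. Each group had 2 libraries, except WT at 0 h with 1, which was assumed to vary like the others. Whether libraries of one group came from separate plantings is not stated, so the p-values reflect library spread alone, which may be technical.

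Plant cells enter S phase when CDKA;1 with D-type cyclins relieves the block that RBR1 puts on E2F factors, which switch on genes of DNA replication. Origins are licensed by ORC, CDC6 and CDT1, which load the ring of MCM proteins. B-type CDKs and A- and B-type cyclins carry the cell through mitosis, and many of their genes hold the MSA element, a site of MYB3R factors. CDC20 and CCS52 proteins direct the APC to destroy cyclins, and KRP and SIM-type proteins bind CDK complexes and restrain them. In the stomatal lineage SPCH drives asymmetric divisions, and endocycles, in which DNA is copied without mitosis, are common in other seedling cells.

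Assigned reads per library were 15.55M to 32.81M. SPCH, the induced gene, was 8.32 higher in iSPCH than in WT on the log2 scale at 6 h and 8.41 higher at 8 h, with values of 41639 and 39757 in iSPCH against 99.5 and 141 in WT at 8 h. Values are reads divided by the authors' size factors, called normalised reads below, and changes are log2 fold changes of these values plus 1, with their standard errors (SE). A gene was called where limma-trend gave a Benjamini-Hochberg adjusted p under 0.05 over all 19666 genes tested. Of the 57 genes 55 were tested. CYCA2;1 and SMR4 were left out for low reads, with values of 2.8 to 11.4 and 2.84 to 16.9 normalised reads over the 11 libraries. Letters A and B tell apart the libraries of a group and carry no order, and fewer cells of a type and less RNA per cell cannot be told apart in such samples.

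Markers of other cell types also differed at 8 h. Of 6 stomatal lineage markers 5 were higher in iSPCH, 1 of them SPCH itself, whose rise the construct fixes, and MUTE was not called. Root hair markers were lower in 5 of 6 cases, with summed levels of 75.4 and 80.8 in iSPCH against 456 and 510 in WT, and all 4 epidermis markers were lower, with summed levels of 7497 and 7942 in iSPCH against 10814 and 10322 in WT. Of the meristem markers, 1 of 5 tested in the root list was lower and 0 of 3 tested in the shoot list were called. Summed root meristem levels were 950 and 1073 in iSPCH against 1093 and 1138 in WT. Summed shoot meristem levels were 2351 and 2795 in iSPCH against 2281 and 2180 in WT. CLV1 made up most of the shoot sums, with 2141 and 2526 in iSPCH against 2042 and 1882 in WT. The 8 h means of STM, KNAT1, CUC2 and CLV3 were lower in iSPCH, as for KNAT1, with 209 against 226 in WT. Libraries of STM, KNAT1 and CUC2 overlapped between the lines at that hour. WUS was at 0 in all 4 libraries of 8 h. The 5 photosynthetic shoot markers could not be split into libraries and were not tested, and the authors' deposited means at 8 h were lower in iSPCH for all 5, as for RCA, with 31303 in iSPCH against 53319 in WT, and RBCS1A, with 147336 in iSPCH against 195434 in WT. The part of these shifts in the results below was not tested.

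Upstream sequences were described by class, apart from the expression values. S phase and mitotic members are textbook targets of E2F and MYB3R factors. Higher shares there of words that these factors bind may thus follow from the choice of genes. In the 250 bases before each annotated start, on either strand, 4 words of E2F type were searched (TTTCCCGC, TTTCGCGC, TTTGCCGC and TTTGGCGC). They stood before 7 of 19 S phase genes, 0 of 25 mitotic genes and 0 of 10 inhibitors, and before 1.4% of 27443 protein-coding genes. The 7 were RBR1, ORC1A and MCM2 to MCM6. The core of the MSA element, AACGG, stood before 4 of 19 S phase genes, 12 of 25 mitotic genes and 5 of 10 inhibitors, against 20.6% of all. The E-box CACGTG, a word that bHLH proteins bind, stood before 0 of 19, 1 of 25 and 1 of 10, against 6.5% of all. No word contains another. A match is a description of the letters, not a site.

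The 200 bases before the start are shown for 4 MCM genes, for 3 cyclins of the B1 group and for the inhibitor KRP2. They are from TAIR10.1, read 5′ to 3′ on the strand of the gene, and overlap no other annotated gene. Capitals mark the E2F-type words in the MCM genes and the MSA core in the others.

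MCM2 (chr1:16970014-16970213, plus strand): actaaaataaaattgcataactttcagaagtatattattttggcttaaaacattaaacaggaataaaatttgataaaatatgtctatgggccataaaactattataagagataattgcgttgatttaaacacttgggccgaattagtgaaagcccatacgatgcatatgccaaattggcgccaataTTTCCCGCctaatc

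MCM3 (chr5:18773707-18773906, minus strand): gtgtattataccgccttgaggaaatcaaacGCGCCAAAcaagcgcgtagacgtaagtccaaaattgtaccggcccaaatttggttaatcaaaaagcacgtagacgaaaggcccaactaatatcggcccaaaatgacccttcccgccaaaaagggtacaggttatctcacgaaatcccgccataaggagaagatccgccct

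MCM5 (chr2:3527501-3527700, minus strand): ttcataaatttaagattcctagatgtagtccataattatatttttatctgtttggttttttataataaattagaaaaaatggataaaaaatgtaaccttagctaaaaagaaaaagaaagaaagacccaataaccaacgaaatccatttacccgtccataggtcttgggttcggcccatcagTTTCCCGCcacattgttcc

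MCM6 (chr5:18010668-18010867, minus strand): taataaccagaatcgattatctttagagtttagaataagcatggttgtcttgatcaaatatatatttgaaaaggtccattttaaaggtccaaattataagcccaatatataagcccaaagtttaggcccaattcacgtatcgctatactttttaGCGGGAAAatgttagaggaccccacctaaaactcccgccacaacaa

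CYCB1;1 (chr4:17624309-17624508, minus strand): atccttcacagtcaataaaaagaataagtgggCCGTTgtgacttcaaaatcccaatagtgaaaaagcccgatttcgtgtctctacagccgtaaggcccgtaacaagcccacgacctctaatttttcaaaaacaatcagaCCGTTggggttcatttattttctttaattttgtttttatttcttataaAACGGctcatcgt

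CYCB1;2 (chr5:1861704-1861903, minus strand): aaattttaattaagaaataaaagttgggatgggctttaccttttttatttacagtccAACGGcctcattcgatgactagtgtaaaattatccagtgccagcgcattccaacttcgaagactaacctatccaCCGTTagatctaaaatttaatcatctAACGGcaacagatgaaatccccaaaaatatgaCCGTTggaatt

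CYCB1;3 (chr3:3627274-3627473, minus strand): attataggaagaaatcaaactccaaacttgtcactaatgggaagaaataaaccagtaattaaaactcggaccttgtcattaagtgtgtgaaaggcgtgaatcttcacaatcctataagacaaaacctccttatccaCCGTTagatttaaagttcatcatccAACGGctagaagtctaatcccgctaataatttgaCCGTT

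KRP2 (chr3:18800106-18800305, plus strand): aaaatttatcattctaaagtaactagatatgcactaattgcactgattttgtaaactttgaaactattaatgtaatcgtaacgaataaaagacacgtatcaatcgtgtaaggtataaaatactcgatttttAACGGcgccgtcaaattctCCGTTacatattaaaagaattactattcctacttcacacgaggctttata

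The E2F-type word lay 7 bases before the start of MCM2, 12 before that of MCM5, 39 before that of MCM6 and 163 before that of MCM3. CYCB1;2 held 4 MSA cores, CYCB1;1 and CYCB1;3 held 3 each and KRP2 held 2. Only genes that hold a word were shown. Among the others, MCM7 and PCNA1 held 0 E2F-type words, and CYCB1;4, CDC20.1 and CDC20.2 held 0 MSA cores. Transcripts of these genes also fell over time, as given below, and any link of the words to expression was not tested.

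Most of the change was over time and in both lines. Most cell cycle genes fell after 0 h, S phase genes mainly by 6 h, whereas CDKA;1, KRP4, CYCA3;2 and E2FB were higher at 8 h than at 0 h. In iSPCH at 6 h against 0 h, 5 genes were called higher and 36 lower, while 65.1% of all genes tested were called, 33.2% higher and 31.9% lower. In WT at 6 h against 0 h, 4 were higher and 26 lower, with 57.2% of all genes called, 29.3% higher and 27.9% lower. Scaled by library size alone, which put the median of all genes at 0.09, the WT split was 7 higher and 23 lower. At 8 h against 0 h the counts were 4 higher and 38 lower in iSPCH, where 68.3% of all genes were called, 34.8% higher and 33.5% lower. They were 5 higher and 36 lower in WT, where 61.1% were called, 31.2% higher and 29.9% lower.

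Lower calls outnumbered higher calls among the members, whereas the 2 directions were near balance over all genes. The balance over all genes depends in part on the scaling by size factors. Scaled by library size alone, iSPCH at 6 h against 0 h had a median of all genes of 0.14, with 6 members higher and 29 lower. Lower calls took 69.1% of the tested members in iSPCH and 65.5% in WT at 8 h, against 33.5% of all genes in iSPCH and 29.9% in WT. The median change at 8 h against 0 h in iSPCH was -0.66 for S phase, -1.08 for mitosis and -0.60 for inhibitors, and 0.02 over all genes. In WT the medians were -0.89, -0.82 and -0.47, and 0.00 over all genes. Called in iSPCH were 2 higher and 13 lower of 19 S phase genes, 0 and 19 of 24 mitotic genes, and 1 and 5 of 9 inhibitors. Not called in iSPCH were E2FC, CDC6, ORC1A and CYCA3;1 of S phase and CYCA2;2, CYCB2;1, CYCB2;3, CDKB2;2 and AUR3 of mitosis. The matching WT counts were 2 and 14, 0 and 17, and 2 and 4. Markers of other cell types also fell over these hours. At 8 h against 0 h all 4 epidermis markers were called lower in both lines, with medians of -1.33 in iSPCH and -0.74 in WT, and root hair markers in 6 of 6 cases in iSPCH and 4 of 6 in WT, with medians of -5.09 in iSPCH and -1.52 in WT. Stomatal lineage markers were called higher in 5 cases and lower in 1 of 6 in iSPCH, against 0 higher and 5 lower in WT, and root meristem markers lower in 3 of 5 in iSPCH and 1 of 5 in WT. Their part in the members' changes was not tested.

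**Figure D1:**
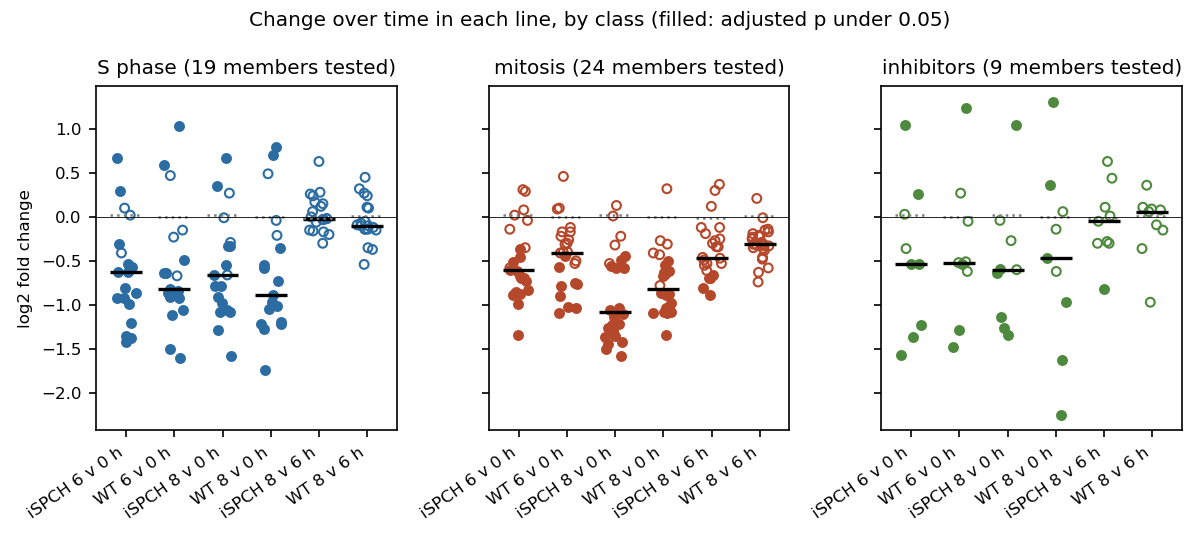
Log2 fold change over time of each tested gene (points, filled where the limma-trend adjusted p was under 0.05) in iSPCH and WT, with the class median (black bar) and the median of all genes (dotted grey). At 8 h against 0 h the medians of mitosis were -1.08 in iSPCH and -0.82 in WT.

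Among S phase genes, all 6 MCM genes, which encode the replicative helicase, fell in both lines. MCM2 (AT1G44900) stood at 566 and 526 at 0 h, 293 and 284 at 6 h and 258 and 257 at 8 h in iSPCH, against 521 at 0 h, 280 and 269 at 6 h and 242 and 192 at 8 h in WT. The 0 h libraries were the highest in both lines, and the 8 h change was -1.08 ± 0.11 in iSPCH (adjusted p = 7.25e-07) and -1.27 ± 0.14 in WT (adjusted p = 1.71e-06). MCM3 (AT5G46280) stood at 412 and 420 at 0 h, 179 and 147 at 6 h and 203 and 190 at 8 h in iSPCH, against 402 at 0 h, 174 and 195 at 6 h and 178 and 165 at 8 h in WT. MCM4 (AT2G16440) stood at 456 and 425 at 0 h, 272 and 231 at 6 h and 220 and 226 at 8 h in iSPCH, against 411 at 0 h, 261 and 267 at 6 h and 218 and 192 at 8 h in WT, and MCM7 (AT4G02060) at 657 and 614 at 0 h, 344 and 357 at 6 h and 336 and 338 at 8 h in iSPCH, against 624 at 0 h, 321 and 364 at 6 h and 312 and 306 at 8 h in WT. Each had its 0 h libraries well above the rest, and over the 6 genes the 8 h change ran from -1.08 to -0.78 in iSPCH and from -1.27 to -0.89 in WT.

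PCNA1 (AT1G07370), the sliding clamp of DNA polymerase, had the largest fall of its class at 8 h in both lines. It stood at 317 and 292 at 0 h, 133 and 101 at 6 h and 109 and 93.4 at 8 h in iSPCH, against 339 at 0 h, 100 and 123 at 6 h and 106 and 95.2 at 8 h in WT. The libraries of 6 h and 8 h overlapped within each line, and the 8 h changes were -1.58 ± 0.16 in iSPCH (adjusted p = 5.79e-07) and -1.74 ± 0.20 in WT (adjusted p = 2.71e-06). PCNA2 fell by less, with -0.66 in iSPCH and -0.73 in WT. CDT1A (AT2G31270), a licensing factor, stood at 252 and 251 at 0 h, 129 and 123 at 6 h and 109 and 95.7 at 8 h in iSPCH, against 261 at 0 h, 89.1 and 94.6 at 6 h and 103 and 120 at 8 h in WT. It fell by 8 h in both lines, with -1.29 ± 0.14 in iSPCH and -1.22 ± 0.17 in WT.

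Regulators of S phase entry moved in different directions. Of the activating E2Fs, E2FB rose by 8 h in both lines, with 0.67 in iSPCH and 0.79 in WT, and E2FA (AT2G36010) fell, with -0.55 in iSPCH and -0.58 in WT. The E2FA calls were each lost without 1 library (adjusted p = 0.0602 leaving out iSPCH 0 h B for iSPCH, and 0.109 leaving out WT 8 h A for WT). DEL1 (AT3G48160), an atypical E2F that holds back endocycles, fell as well, with -0.79 in iSPCH and -0.97 in WT, and its iSPCH call was lost without 1 of 2 libraries (adjusted p = 0.0943 leaving out iSPCH 0 h A and 0.0988 leaving out iSPCH 8 h A). RBR1, the retinoblastoma protein, fell, with -0.33 in iSPCH and -0.35 in WT, but with library size alone the iSPCH value was -0.16 and not called (adjusted p = 0.0865). With library size alone E2FA was called neither in iSPCH (-0.38, adjusted p = 0.0574) nor in WT (-0.47, adjusted p = 0.0632). The WT call of E2FA was also lost with DESeq2 (adjusted p = 0.074). E2FC (AT1G47870), which acts mainly as a repressor, stood at 170 and 148 at 0 h, 183 and 158 at 6 h and 195 and 188 at 8 h in iSPCH, against 173 at 0 h, 154 and 158 at 6 h and 183 and 155 at 8 h in WT, and was not called over time in either line. In iSPCH both libraries of 8 h were above all earlier ones, and in WT the hours overlapped.

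The A3-type cyclins, which act from S phase onset, split. CYCA3;2 (AT1G47210) stood at 323 and 282 at 0 h, 355 and 386 at 6 h and 381 and 389 at 8 h in iSPCH, against 286 at 0 h, 428 and 436 at 6 h and 499 and 431 at 8 h in WT. It rose by 8 h, with 0.35 ± 0.11 in iSPCH and 0.70 ± 0.13 in WT, although the iSPCH call was lost without one library (adjusted p = 0.0976 leaving out iSPCH 0 h B). CYCA3;1 (AT5G43080) stood at 72.5 and 52.5 at 0 h, 32.3 and 32.2 at 6 h and 36.1 and 41.5 at 8 h in iSPCH, against 58.5 at 0 h, 22.7 and 41.3 at 6 h and 29.7 and 26.1 at 8 h in WT, and CYCA3;4 (AT1G47230) at 222 and 216 at 0 h, 132 and 164 at 6 h and 179 and 168 at 8 h in iSPCH, against 222 at 0 h, 162 and 154 at 6 h and 154 and 147 at 8 h in WT. CYCA3;1 had 0 h values above all later ones in both lines, with -0.66 ± 0.29 in iSPCH, not called, and -1.05 ± 0.35 in WT, called with all libraries but not without 1 (adjusted p = 0.0622 leaving out WT 8 h B). CYCA3;4 was lower by 8 h in both, with -0.33 ± 0.13 in iSPCH and -0.55 ± 0.16 in WT. The iSPCH call of CYCA3;4 was lost in 5 of the fits that left out 1 library (adjusted p = 0.13 leaving out iSPCH 0 h A, 0.0855 leaving out iSPCH 0 h B, 0.0501 leaving out WT 6 h A, 0.0637 leaving out iSPCH 8 h A and 0.152 leaving out iSPCH 8 h B) and under other settings (0.299 with library size alone, 0.06 with TMM, 0.0514 with no filter and 0.138 with DESeq2), and with library size alone the value was -0.16.

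CDC6, which loads the MCM ring (AT2G29680, chr2:12689171-12693121), was the only S phase gene called between the lines. It stood at 62 and 60.3 at 0 h, 59.9 and 64.4 at 6 h and 74.3 and 49.6 at 8 h in iSPCH, against 53.1 at 0 h, 110 and 110 at 6 h and 77.7 and 72.5 at 8 h in WT. The WT libraries of 6 h were above all others, and the iSPCH libraries of 6 h lay near those of 0 h. At 6 h iSPCH against WT gave -0.81 ± 0.20 (adjusted p = 0.0317), with 4.73% of all genes called in that comparison, 1.16% higher and 3.57% lower. The call was lost without any of the 4 libraries of that hour (adjusted p = 0.0796 leaving out iSPCH 6 h A, 0.105 leaving out iSPCH 6 h B, 0.195 leaving out WT 6 h A and 0.173 leaving out WT 6 h B). At 8 h the difference was -0.30 ± 0.20 and was not called. In WT, CDC6 rose by 1.03 ± 0.25 at 6 h (adjusted p = 0.00227), and in iSPCH the value was 0.02 ± 0.20. The difference between these changes, -1.01 ± 0.32, had an adjusted p of 0.196. An exon of CDC6 overlaps AT2G29679 on the other strand. Whether counting used strand is not given in the sources used here, so reads within the overlap cannot be told apart. How much of CDC6 the overlap covers was not measured.

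**Figure D2:**
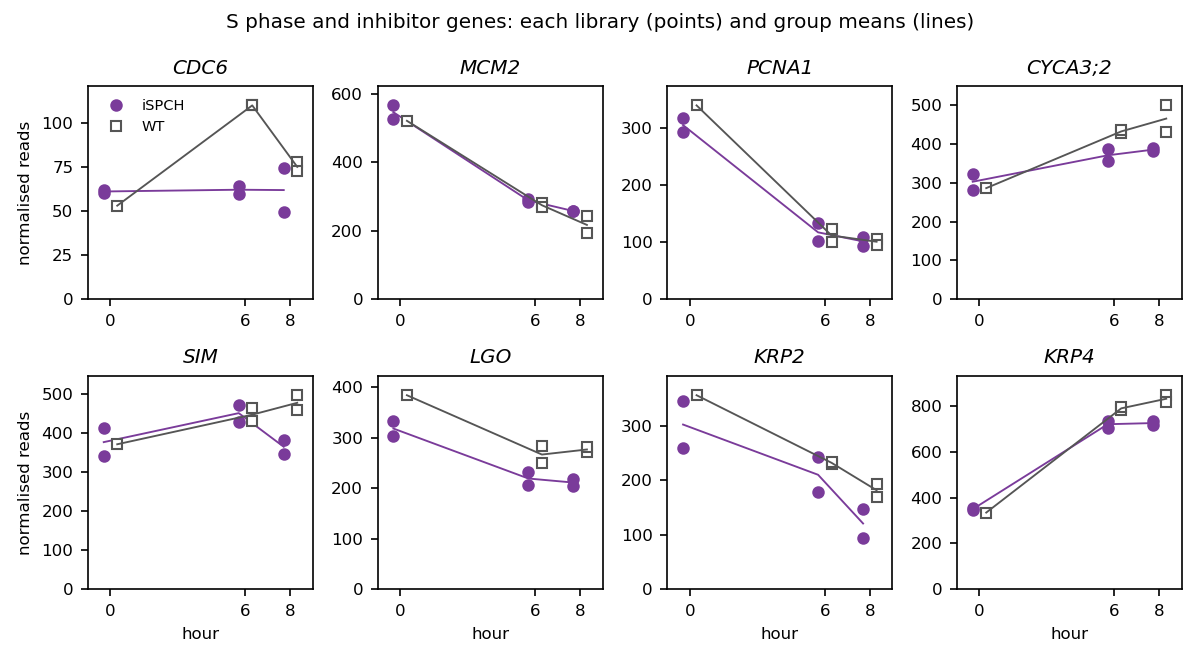
Normalised reads of 4 S phase genes (upper row) and 4 inhibitors (lower row) by hour, with a point per library and lines through the group means. At 6 h CDC6 stood at 59.9 and 64.4 in iSPCH and 110 and 110 in WT.

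Several mitotic genes fell further in iSPCH between 6 h and 8 h. In iSPCH at 8 h against 6 h, 7 members were called lower and 0 higher, while 7.55% of all genes were called, 3.98% higher and 3.57% lower. They were the mitotic genes CDC20.1, CDC20.2, CYCB1;2, CYCB1;4, CYCB2;2 and KNOLLE, and the inhibitor KRP2. Of these, CYCB1;4 and CYCB2;2 were called neither with edgeR nor with DESeq2. With only the groups compared, KRP2, CYCB1;4 and CYCB2;2 were not called. In WT at 8 h against 6 h limma-trend called 0 members, with 12 of 55 at an unadjusted p under 0.05 and 0.412% of all genes called; edgeR and DESeq2 also called 0. The mitotic median was -0.46 in iSPCH and -0.31 in WT, with 21 and 23 of 24 genes below 0. The S phase medians were -0.02 in iSPCH and -0.10 in WT. No member was called in the test of the difference itself, the line difference at 8 h minus that at 6 h, where 1.12% of all genes were called and 9 of 55 members had an unadjusted p under 0.05; edgeR and DESeq2 also called 0.

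CDC20.1 (AT4G33270, chr4:16044169-16046937), which activates the APC in mitosis, stood at 620 and 510 at 0 h, 362 and 335 at 6 h and 178 and 196 at 8 h in iSPCH, against 560 at 0 h, 335 and 332 at 6 h and 257 and 273 at 8 h in WT. All 4 libraries of 8 h were below those of 6 h, and both iSPCH libraries of 8 h were below both WT libraries. At 8 h against 6 h it fell by 0.89 ± 0.11 in iSPCH (adjusted p = 1.97e-04), and iSPCH against WT at 8 h gave -0.50 ± 0.11 (adjusted p = 0.00869). The line call was lost without 2 libraries, with adjusted p = 0.0772 leaving out iSPCH 8 h A and 0.0814 leaving out WT 8 h B.

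CDC20.2, its neighbour (AT4G33260, chr4:16041006-16043549), stood at 460 and 396 at 0 h, 283 and 255 at 6 h and 157 and 176 at 8 h in iSPCH, against 417 at 0 h, 255 and 238 at 6 h and 196 and 227 at 8 h in WT. The 8 h iSPCH libraries were again the lowest, with -0.69 ± 0.12 at 8 h against 6 h (adjusted p = 0.00271). The line difference at 8 h, -0.34 ± 0.12, was not called (adjusted p = 0.0964). CDC20.1 and CDC20.2 share exon stretches of 582, 279 and 270 bases at 98.797, 97.491 and 99.63% identity, so reads could be split between them and the pair is uncertain as 2 separate genes.

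CYCB1;2 (AT5G06150, chr5:1859279-1861703), a mitotic B-type cyclin, stood at 369 and 321 at 0 h, 226 and 202 at 6 h and 137 and 107 at 8 h in iSPCH, against 318 at 0 h, 227 and 253 at 6 h and 158 and 193 at 8 h in WT. Its 8 h libraries were the lowest of each line. At 8 h against 6 h it fell in iSPCH by 0.81 ± 0.15 (adjusted p = 0.00297), and iSPCH against WT at 8 h gave -0.52 ± 0.15 (adjusted p = 0.0332). That call was lost without 1 of 2 libraries, with adjusted p = 0.283 leaving out iSPCH 8 h B and 0.266 leaving out WT 8 h B. A stretch of 207 bases is 95.169% identical to AT1G34460.

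The other B-type cyclins had lower or similar values at 8 h. CYCB1;1 (AT4G37490) stood at 108 and 118 at 0 h, 67.8 and 54.6 at 6 h and 44.6 and 41.5 at 8 h in iSPCH, against 86.3 at 0 h, 64.4 and 65.4 at 6 h and 51.5 and 57.8 at 8 h in WT. CYCB1;3 (AT3G11520) stood at 147 and 116 at 0 h, 70.1 and 75.6 at 6 h and 56.3 and 48.5 at 8 h in iSPCH, against 131 at 0 h, 98.6 and 86.5 at 6 h and 62.8 and 60.1 at 8 h in WT, and CYCB1;4 (AT2G26760) at 223 and 174 at 0 h, 121 and 116 at 6 h and 72.2 and 73.8 at 8 h in iSPCH, against 207 at 0 h, 102 and 142 at 6 h and 87.3 and 108 at 8 h in WT. All 3 had lower 8 h values in iSPCH than in WT, but none was called, with -0.34 ± 0.19, -0.23 ± 0.18 and -0.40 ± 0.18. CYCB1;4 fell in iSPCH at 8 h against 6 h by 0.69 ± 0.18 (adjusted p = 0.0298), a call lost in 4 of the fits that left out 1 library (adjusted p = 0.103 leaving out iSPCH 6 h A, 0.0679 leaving out iSPCH 6 h B, 0.118 leaving out iSPCH 8 h A and 0.114 leaving out iSPCH 8 h B). CYCB2;2 (AT4G35620) stood at 113 and 92.4 at 0 h, 75.6 and 84 at 6 h and 43.5 and 55.4 at 8 h in iSPCH, against 94 at 0 h, 87.2 and 79.5 at 6 h and 62.8 and 64.6 at 8 h in WT, and CYCB2;4 (AT1G76310) at 152 and 123 at 0 h, 90.6 and 101 at 6 h and 69 and 61.1 at 8 h in iSPCH, against 111 at 0 h, 99.5 and 90.6 at 6 h and 84.7 and 79.3 at 8 h in WT. CYCB2;2 fell by 0.69 ± 0.19 in iSPCH at 8 h against 6 h (adjusted p = 0.0355), a call lost in 5 such fits (adjusted p = 0.0672 leaving out iSPCH 6 h A, 0.138 leaving out iSPCH 6 h B, 0.054 leaving out WT 6 h A, 0.0532 leaving out WT 6 h B and 0.219 leaving out iSPCH 8 h A). Neither was called between the lines at 8 h. Other settings also ended the calls of CYCB1;4 and CYCB2;2 in iSPCH at 8 h against 6 h. For CYCB1;4 the adjusted p was 0.0517 with no filter, 0.052 with edgeR, 0.105 with DESeq2 and 0.0591 with only the groups compared. For CYCB2;2 it was 0.055 with no filter, 0.0551 with edgeR, 0.234 with DESeq2 and 0.13 with only the groups compared. CYCB2;3, which shares 99.441% of 179 bases with AT1G20590, was called in no comparison.

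KNOLLE (AT1G08560), a syntaxin of the cell plate, stood at 658 and 526 at 0 h, 378 and 398 at 6 h and 252 and 238 at 8 h in iSPCH, against 517 at 0 h, 338 and 356 at 6 h and 283 and 273 at 8 h in WT. Both iSPCH libraries of 8 h were below both WT libraries, and the difference, -0.18 ± 0.11, was not called. It fell at 8 h against 6 h in iSPCH by 0.66 ± 0.11 (adjusted p = 0.0017). An exon of KNOLLE overlaps AT1G08550 on the other strand.

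The B-type CDKs, particular to plants, were less uniform. CDKB1;1 (AT3G54180) stood at 127 and 138 at 0 h, 78 and 67.2 at 6 h and 75.4 and 106 at 8 h in iSPCH, against 146 at 0 h, 66.3 and 75.5 at 6 h and 44.5 and 72.5 at 8 h in WT. Both iSPCH libraries of 8 h were above both WT libraries, and the difference of 0.64 ± 0.23 was not called (adjusted p = 0.0889). Without WT 8 h B it was called (adjusted p = 0.0261). Against 0 h it fell by 8 h, with -0.56 ± 0.23 in iSPCH and -1.34 ± 0.28 in WT, and the iSPCH call was lost without 1 of 3 libraries (adjusted p = 0.0845 leaving out iSPCH 0 h A, 0.156 leaving out iSPCH 0 h B and 0.309 leaving out iSPCH 8 h A) and under other settings (0.14 with library size alone, 0.0542 with TMM, 0.061 with no filter and 0.0868 with DESeq2). CDKB2;1 (AT1G76540) stood at 406 and 407 at 0 h, 307 and 325 at 6 h and 305 and 276 at 8 h in iSPCH, against 425 at 0 h, 348 and 340 at 6 h and 250 and 287 at 8 h in WT, and fell by 8 h in both lines, with -0.49 ± 0.10 in iSPCH and -0.67 ± 0.13 in WT. An exon of CDKB1;1 overlaps AT3G54190 on the other strand. Of the Aurora kinases, AUR1 and AUR2 fell by 8 h in both lines and AUR3 was called in neither. The WT call of AUR1 was lost without WT 8 h A (adjusted p = 0.0583), and 131 of its bases are 95.42% identical to AT4G32820.

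Among the other mitotic genes called over time, CYCA1;1 (AT1G44110), an A-type cyclin, fell by 8 h against 0 h, with -1.44 in iSPCH and -1.09 in WT. CYCB3;1 (AT1G16330) fell by 1.22 in iSPCH and 1.03 in WT, where the call was lost without 1 library (adjusted p = 0.126 leaving out WT 8 h A). CDKB1;2 (AT2G38620) fell by 1.23 in iSPCH and 0.88 in WT, where it too was lost without 1 library (adjusted p = 0.274 leaving out WT 8 h A). Other settings also ended the WT call of CDKB1;2 (adjusted p = 0.0637 with library size alone, 0.0546 with no filter and 0.089 with DESeq2). Without WT 8 h A its WT value was -0.42. CCS52B (AT5G13840), an APC activator of dividing cells, fell by 0.44 in iSPCH and 0.50 in WT. CYCA2;3 (AT1G15570) fell by 0.58 in iSPCH and 0.61 in WT, where the call was lost without 1 library (adjusted p = 0.0633 leaving out WT 8 h A). CYCA2;4 (AT1G80370) fell by 0.58 in iSPCH, a call lost without 1 library (adjusted p = 0.072 leaving out iSPCH 0 h A), and had -0.31 in WT, not called.

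**Figure D3:**
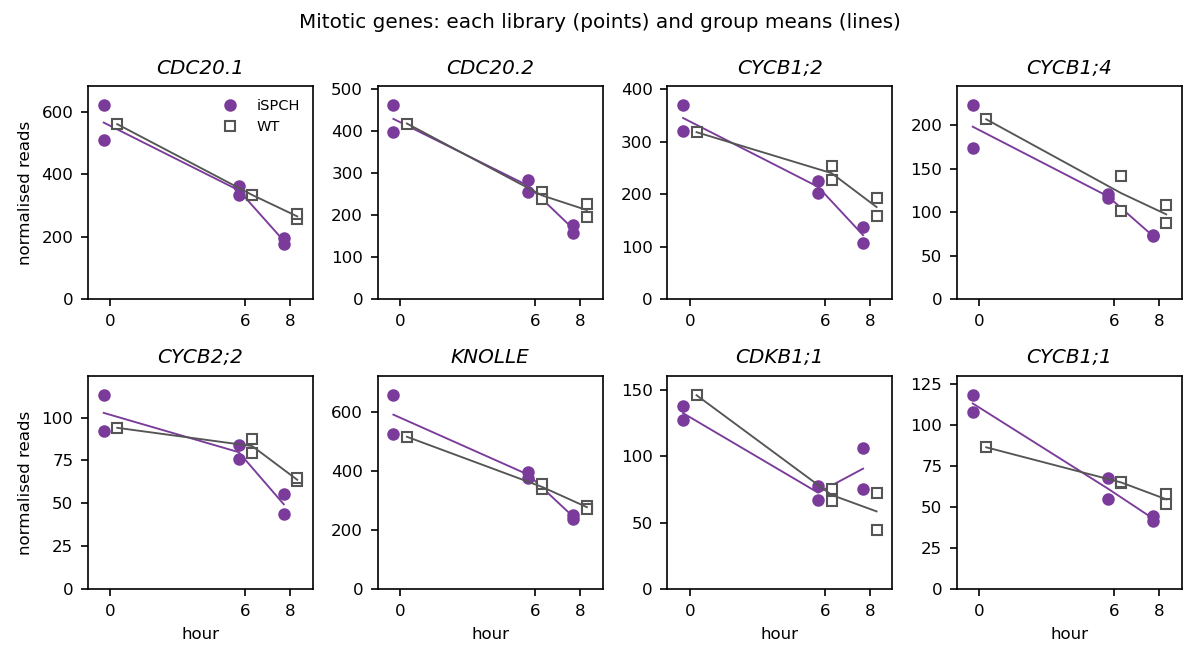
Normalised reads of 8 mitotic genes by hour, with a point per library and lines through the group means. At 8 h CDC20.1 stood at 178 and 196 in iSPCH and 257 and 273 in WT.

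Inhibitors moved in opposite directions over time. KRP4 (AT2G32710) stood at 354 and 346 at 0 h, 706 and 738 at 6 h and 719 and 735 at 8 h in iSPCH, against 335 at 0 h, 784 and 799 at 6 h and 849 and 818 at 8 h in WT. It rose by 8 h in both lines, with 1.05 ± 0.08 in iSPCH (adjusted p = 1.78e-08) and 1.31 ± 0.10 in WT (adjusted p = 2.98e-08). KRP1 (AT2G23430) stood at 259 and 265 at 0 h, 82.7 and 92.4 at 6 h and 118 and 120 at 8 h in iSPCH, against 306 at 0 h, 102 and 117 at 6 h and 111 and 87.3 at 8 h in WT, and KRP7 (AT1G49620) at 37.2 and 36.9 at 0 h, 13.4 and 14 at 6 h and 21.2 and 10.4 at 8 h in iSPCH, against 45.4 at 0 h, 18 and 18.1 at 6 h and 9.6 and 7.93 at 8 h in WT. Both fell by 8 h, KRP1 with -1.14 ± 0.15 in iSPCH and -1.63 ± 0.18 in WT, and KRP7 with -1.26 ± 0.37 in iSPCH and -2.25 ± 0.45 in WT. The iSPCH call of KRP7 was lost without iSPCH 8 h B (adjusted p = 0.0979). An exon of KRP4 overlaps AT2G32720 on the other strand.

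KRP2 (AT3G50630, chr3:18800306-18801595) stood at 259 and 347 at 0 h, 243 and 178 at 6 h and 147 and 94.6 at 8 h in iSPCH, against 357 at 0 h, 231 and 234 at 6 h and 194 and 170 at 8 h in WT. It fell by 0.82 ± 0.21 in iSPCH at 8 h against 6 h (adjusted p = 0.0388), a call lost in 6 of the fits that left out 1 library (adjusted p = 0.19 leaving out iSPCH 6 h A, 0.065 leaving out WT 6 h A, 0.0649 leaving out WT 6 h B, 0.24 leaving out iSPCH 8 h B, 0.0609 leaving out WT 8 h A and 0.0608 leaving out WT 8 h B). Against WT at 8 h the value was -0.62 ± 0.21 and not called (adjusted p = 0.0936), although it was called without iSPCH 8 h A (adjusted p = 0.015). KRP3 (AT5G48820) stood at 37.2 and 29.2 at 0 h, 21.3 and 8.4 at 6 h and 23.4 and 19.6 at 8 h in iSPCH, against 34.7 at 0 h, 20.9 and 27.2 at 6 h and 21.8 and 22.7 at 8 h in WT. KRP5 (AT3G24810) stood at 80.1 and 56.4 at 0 h, 55.2 and 49 at 6 h and 51 and 35.8 at 8 h in iSPCH, against 59.3 at 0 h, 41.7 and 41.3 at 6 h and 48.9 and 58.9 at 8 h in WT, and KRP6 (AT3G19150) at 80.1 and 110 at 0 h, 94.5 and 96.6 at 6 h and 81.8 and 73.8 at 8 h in iSPCH, against 75.5 at 0 h, 71.1 and 74.5 at 6 h and 76.8 and 80.5 at 8 h in WT. None of the 3 was called between the lines at any hour, and their libraries overlapped between the lines at 8 h. Over time, KRP3 was called lower in iSPCH at 6 h against 0 h (-1.23), but not with DESeq2 (adjusted p = 0.0699). Without iSPCH 6 h B that value was -0.61. KRP5 was called lower in iSPCH at 8 h against 0 h (-0.64), but not with DESeq2 (adjusted p = 0.105). Without iSPCH 8 h B the KRP5 value was -0.39.

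SIM and LGO, which promote endocycles in trichomes and in sepal giant cells, were the inhibitors called between lines. SIM (AT5G04470, chr5:1266625-1267416) stood at 342 and 413 at 0 h, 474 and 430 at 6 h and 383 and 348 at 8 h in iSPCH, against 372 at 0 h, 465 and 431 at 6 h and 459 and 498 at 8 h in WT. LGO (AT3G10525, chr3:3281306-3282131) stood at 304 and 332 at 0 h, 232 and 206 at 6 h and 218 and 204 at 8 h in iSPCH, against 384 at 0 h, 283 and 250 at 6 h and 272 and 281 at 8 h in WT. Against 0 h, LGO was lower by 8 h in both lines, with -0.59 in iSPCH and -0.47 in WT. SIM was higher by 8 h in WT, with 0.36, although not called with DESeq2 (adjusted p = 0.0808). In iSPCH the SIM change was 0.26 at 6 h, called but not with DESeq2 (adjusted p = 0.124). Its iSPCH means were 377 at 0 h and 366 at 8 h, with no call between them. Both iSPCH libraries of 8 h were below both WT libraries for each gene. At 8 h SIM gave -0.39 ± 0.11 (adjusted p = 0.0346) and LGO -0.39 ± 0.11 (adjusted p = 0.0389). For LGO iSPCH against WT gave -0.27 at 0 h and -0.28 at 6 h, not called, and its line difference at 8 h minus 0 h was -0.12 ± 0.18 (adjusted p = 0.802). That of SIM was -0.40 ± 0.17 (adjusted p = 0.253).

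The SIM call was lost in 6 of the fits that left out 1 library, with adjusted p = 0.0514 leaving out WT 6 h A, 0.0511 leaving out WT 6 h B, 0.062 leaving out iSPCH 8 h A, 0.221 leaving out iSPCH 8 h B, 0.0714 leaving out WT 8 h A and 0.216 leaving out WT 8 h B. The LGO call was lost in 6 as well, with adjusted p = 0.0517 leaving out WT 6 h A, 0.0512 leaving out WT 6 h B, 0.0868 leaving out iSPCH 8 h A, 0.2 leaving out iSPCH 8 h B, 0.109 leaving out WT 8 h A and 0.18 leaving out WT 8 h B. Exons of both overlap a gene on the other strand, AT5G04475 for SIM and AT3G10527 for LGO. Root hair and epidermis markers were lower in iSPCH at the same hour, as given above, and their part in these calls was not tested.

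Of the genes in no class, CDKA;1 (AT3G48750), the core kinase of the cycle, stood at 701 and 639 at 0 h, 1123 and 1235 at 6 h and 1275 and 1268 at 8 h in iSPCH, against 678 at 0 h, 1131 and 1122 at 6 h and 1225 and 1177 at 8 h in WT. It rose by 8 h in both lines, with 0.92 ± 0.08 in iSPCH and 0.82 ± 0.10 in WT, and the lines differed by 0.08 ± 0.08, not called. CCS52A1 (AT4G22910), an APC activator of endocycles, stood at 213 and 241 at 0 h, 137 and 133 at 6 h and 127 and 110 at 8 h in iSPCH, against 233 at 0 h, 153 and 167 at 6 h and 137 and 155 at 8 h in WT. It fell by 8 h, with -0.93 ± 0.14 in iSPCH and -0.67 ± 0.17 in WT. CCS52A2 (AT4G11920), its relative in meristems, stood at 93.5 and 103 at 0 h, 102 and 102 at 6 h and 111 and 108 at 8 h in iSPCH, against 108 at 0 h, 90 and 123 at 6 h and 121 and 103 at 8 h in WT, with libraries that overlapped between the lines at 6 h and 8 h and no call over time.

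Between the lines few members differed. At 0 h limma-trend called 0 of 55, with 0 at an unadjusted p under 0.05 and 0.0915% of all genes called; edgeR and DESeq2 also called 0. At 6 h it called 0 higher and 1 lower, CDC6. At 8 h it called 0 higher and 4 lower, with 10.7% of all genes called, 4.75% higher and 5.97% lower. The 7.27% of tested members called lower is near that background. When libraries were scaled by library size alone, which put the median of all genes at 0.11 at 6 h and 0.09 at 8 h, the calls became 1 higher and 0 lower at 6 h and 2 higher and 1 lower at 8 h. Of the 4 genes lower at 8 h, CDC20.1 was still called under that scaling. Leaving out WT 8 h B ended all 4 lower calls and left 1 higher, CDKB1;1, and leaving out WT 8 h A left 2 lower and 1 higher, MCM2. Other settings ended the calls of CYCB1;2 (adjusted p = 0.0968 with library size alone, 0.0565 with no filter, 0.0586 with edgeR, 0.123 with DESeq2 and 0.0661 with only the groups compared), SIM (0.127 with library size alone, 0.0547 with TMM, 0.0578 with no filter and 0.107 with DESeq2) and LGO (0.137 with library size alone, 0.0591 with TMM, 0.0591 with no filter, 0.188 with DESeq2 and 0.0558 with only the groups compared) at 8 h, and of CDC6 at 6 h (0.0502 with library size alone, 0.0528 with no filter and 0.103 with DESeq2).

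By class, limma-trend called 0 of 19 S phase genes at 8 h, with 2 at an unadjusted p under 0.05, and edgeR and DESeq2 also called 0. It called 2 of 24 mitotic genes (8.33%) and 2 of 9 inhibitors (22.2%), all lower in iSPCH. Over all genes 5.97% were called lower and 4.75% higher. The 2 inhibitor calls, of SIM and LGO, were lost under several settings, as given above. No class share was tested against that of all genes. The median differences were 0.10 for S phase, -0.17 for mitosis and -0.20 for inhibitors, against -0.03 over all genes. The values of the mitotic genes ran from -0.52 to 0.64 and those of the inhibitors from -0.62 to 0.71. No difference between classes was tested.

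**Figure D4:**
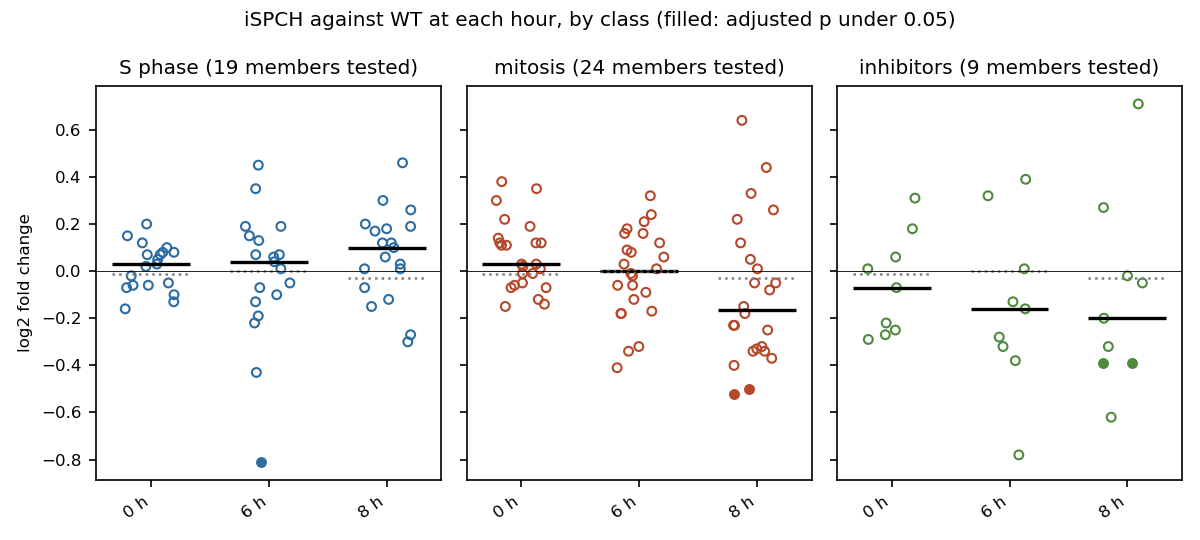
Log2 fold change of iSPCH against WT at 0 h, 6 h and 8 h for each tested gene by class, filled where the limma-trend adjusted p was under 0.05, with the class median (black bar) and that of all genes (dotted grey). At 8 h the medians were 0.10, -0.17 and -0.20.

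In the tests of the line difference at 6 h and at 8 h minus that at 0 h, limma-trend called 0 members, where 0.717% and 3.26% of all genes were called. At an unadjusted p under 0.05 there were 2 and 6 of 55 members, and edgeR and DESeq2 called 0. These tests share the single WT library of 0 h.

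Other cell cycle genes outside the members were counted by list, with D-type cyclins left out. At 8 h in iSPCH against WT, where 10.7% of all genes were called, 1 of 16 tested S phase and origin factors was called higher, 0 of 19 mitosis and cytokinesis factors were called, and 1 of 11 other CDK inhibitors and CDK partners was called higher. CKS2 (AT2G27970), a small protein that binds CDKs, stood at 310 and 241 at 0 h, 150 and 165 at 6 h and 208 and 163 at 8 h in iSPCH, against 322 at 0 h, 163 and 167 at 6 h and 113 and 116 at 8 h in WT. Its difference was 0.68 ± 0.15 (adjusted p = 0.00809). The call was lost without 1 of 2 libraries, with adjusted p = 0.104 leaving out iSPCH 8 h A and 0.0505 leaving out WT 8 h A. RNR1 (AT2G21790), a subunit of the enzyme that makes deoxyribonucleotides, stood at 1173 and 1002 at 0 h, 600 and 602 at 6 h and 708 and 715 at 8 h in iSPCH, against 1123 at 0 h, 589 and 633 at 6 h and 539 and 561 at 8 h in WT. Its difference was 0.37 ± 0.09 (adjusted p = 0.0133), a call lost without any of the 4 libraries of that hour (adjusted p = 0.0629 leaving out iSPCH 8 h A, 0.0765 leaving out iSPCH 8 h B, 0.0847 leaving out WT 8 h A and 0.0524 leaving out WT 8 h B). The other 2 genes with the smallest p were not called. AT1G10690, from the list of CDK inhibitors and CDK partners, had 0.79 ± 0.26. Its iSPCH libraries of 8 h held 60.5 and 70.4 normalised reads, and those of WT held 34 and 40.8. In 19 of 23 alternatives it stayed uncalled, but library size alone (adjusted p = 0.0331) and only the groups compared (0.0466) gave a call. In iSPCH it was called higher at 8 h than at 0 h (1.17). Its WT means were 23.9 at 0 h and 37.4 at 8 h. ICU2, a subunit of DNA polymerase alpha, had 0.26 ± 0.10 and was called with library size alone (adjusted p = 0.0274).

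Patterns over the 11 libraries were compared between members, as a description over libraries that share groups and scaling. The median Pearson correlation of log2 values was 0.77 over 171 S phase pairs, 0.75 over 276 mitotic pairs and 0.25 over 36 inhibitor pairs, and 0.63 between S phase and mitosis. Single pairs ran from -0.9 to 0.98 within S phase, from -0.39 to 0.99 within mitosis and from -0.95 to 0.89 within inhibitors, so some members ran opposite to others of their class. CDC20.1 was most like CDC20.2 (0.99), CYCB1;4 (0.97) and KNOLLE (0.97). CDC20.1 and CDC20.2 share near-identical exon stretches, as given above, so reads split between them could raise their correlation, which was not tested. CYCB1;2 was most like CDC20.1 (0.96). LGO was most like CCS52A1 (0.9), KRP4 was most like CDKA;1 (0.97), and SIM had no member closer than KRP4 (0.58).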

How the data were processed

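Poly-A RNA of 11 libraries in 6 groups was sequenced by the authors. Per the submitters' processing notes, CASAVA 1.8, TopHat, DESeq and TAIR10 were used, with no roles named. The counting tool, the gene models and the strand setting were not given in the sources used here. In the deposited table there is 1 signal value per gene and group, named a mean in the file header; 0 columns were left out. Each value is, to the 10 digits deposited, a sum of whole multiples of 1 step (WT 0 h) or 2 steps, so whole reads of each library were recovered for 33490 of 33602 genes, all 57 members included. The other 112 genes, with 31.4% of all reads, had several solutions and were not tested. The recovery and the fit were checked on simulated data.

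After division by the size factors of the authors, 1 was added and the log2 values were fitted in R 4.3.3 with limma 3.58.1 (limma-trend, robust, 1 coefficient per group). The filter, CPM of at least 1 in at least 2 libraries, left 19666 genes, and the FDR (Benjamini-Hochberg) was 0.05 in each of 12 comparisons. Depth was 15.55M to 32.81M assigned reads, and the median SE of a member at 8 h was 0.16; precision covers spread between libraries. edgeR 4.0.16 and DESeq2 1.42.0 were alternatives. BLAST+ 2.17.0 was used to find near-identical copies (95% identity or more over 100 bases), and positions and promoters taken from RefSeq TAIR10.1; 22 members overlap another gene, 21 of them in exons.

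The members, classes, marker lists and tests were chosen with earlier results of these data known. Values in every library are given for the 8 S phase, 8 mitotic and 6 inhibitor genes with the smallest p of iSPCH against WT at 8 h, up to 3 further genes of each class with the smallest p of WT at 8 h against 0 h, the 3 genes in no class, and up to 4 other cell cycle genes. Other members are named where called. Alternatives changed the added count, scaling, filter, test, variance, groups in the fit, threshold and libraries.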

Additional observations from a re-analysis of the deposited data

Results flagged for a closer look

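SPCH, the induced gene, changed differently in the lines: its line difference was 8.16 larger on the log2 scale at 6 h than at 0 h and 8.26 larger at 8 h than at 0 h, by the limma-trend test of the difference itself. The construct fixes this outcome, since WT lacks it, so the values show only that SPCH was induced.

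CKS2, a CDK-binding protein outside the members, had a line difference at 8 h minus 0 h of 0.91 (limma-trend adjusted p = 0.0493). Its values were 310 and 241 at 0 h, 150 and 165 at 6 h and 208 and 163 at 8 h in iSPCH, against 322 at 0 h, 163 and 167 at 6 h and 113 and 116 at 8 h in WT. The call rests on each of several libraries, with adjusted p = 0.164 leaving out iSPCH 0 h B, 0.0751 leaving out WT 6 h A, 0.0749 leaving out WT 6 h B, 0.166 leaving out iSPCH 8 h A, 0.11 leaving out WT 8 h A and 0.0982 leaving out WT 8 h B. It was also lost under other settings, with adjusted p = 0.0504 with an added count of 0.1, 0.0821 with no filter, 0.0965 with DESeq2, 0.0562 with the variance not robust and 0.0545 with only the groups compared.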

How the results depend on the processing

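Counts of members called over time against 0 h stayed within 1.5 times under every alternative, and the counts of 0 between the lines at 0 h, in WT at 8 h against 6 h and in the 3 differences between contrasts stayed at 0 in all of them that were run. The count of 1 between the lines at 6 h was 0 with no filter, with a mean CPM of at least 5, with DESeq2 and at FDR 0.01, and 2 at FDR 0.10; leaving out 1 library gave 0 to 1. The count of 4 at 8 h was 2 with TMM and with only the groups compared, 1 with no filter, with DESeq2 and at FDR 0.01, and 7 at FDR 0.10; leaving out 1 library gave 1 to 4, of which the 1 without WT 8 h B was higher in iSPCH. The count of 7 in iSPCH at 8 h against 6 h was 4 with only the groups compared and at FDR 0.01, and 11 at FDR 0.10; leaving out 1 library gave 4 to 7.

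By class at 8 h, the S phase count of 0 was 1 with library size alone and 0 to 1 without 1 library. The mitosis count of 2 was 1 with no filter, edgeR, DESeq2, only the groups compared and FDR 0.01, and 4 at FDR 0.10, and 1 to 2 without 1 library. The inhibitor count of 2 was 0 with library size alone, TMM, no filter, DESeq2 and FDR 0.01, 1 with only the groups compared, and 0 to 2 without 1 library. For single genes 4501 values kept direction and side of the threshold, 249 lost the call and 13 gained it. CCS52A2 at 8 h changed sign, to 0.1 with library size alone, 0.01 with TMM and 0.09 without WT 8 h A, and the fits that left out 1 library ran from -0.14 to 0.09; it was not called. The cause of these shifts was not tested.

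Library size alone moved the median of all genes in iSPCH at 8 h against 0 h to 0.19, and the class medians there to -0.49 for S phase, -0.92 for mitosis and -0.44 for inhibitors. No paired analysis was possible because the deposited group means carry no replicate number. With 2 libraries a group, small changes of genes with few reads, such as KRP3, KRP7 and CYCA2;2, may have been missed. How small a change could be found for these genes was not tested, and larger changes of KRP7 were called over time, as given above.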
